A study of Homo sapiens with 6 samples.

Results

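The aldo-keto reductases are NADPH-dependent enzymes of a common barrel fold that reduce aldehydes and ketones to alcohols. The 9 members described here, AKR1A1, AKR1B1, AKR1B10, AKR1C1 to AKR1C4, AKR7A2 and AKR7A3, were chosen by symbol, with rows of the same symbol summed, from 58828 symbols in the tables. RNA was profiled in xenograft tumours grown from MHCC97L cells, a human hepatocellular carcinoma line. A total of 3 libraries came from tumours given recombinant human lumican (rhLUM), a secreted proteoglycan of the extracellular matrix, and 3 came from control tumours (Ctrl). The sources used here do not give the dose, the duration, the host animal, or whether each library is a tumour of its own. The p-values thus reflect the spread among these libraries alone, and that spread may be technical. All 6 libraries are of the same cell line.

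In the liver these enzymes clear reactive carbonyls, interconvert active and inactive steroids, and act on retinal, prostaglandins and bile acid precursors. Several of them, AKR1B10 and AKR1C1 among them, are known targets of NRF2, the transcription factor of the oxidative stress response, and AKR1B10 is known for its high level in hepatocellular carcinoma. AKR1C1 to AKR1C4 lie side by side on chromosome 10 and share most of their sequence.

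The cluster runs from AKR1C1 (chr10:4963253-4983283, plus strand) through AKR1C2 (chr10:4987400-5018031, minus strand) and AKR1C3 (chr10:5035354-5107686, plus strand) to AKR1C4 (chr10:5195462-5218949, plus strand) in GENCODE 29 on GRCh38. AKR1C1 and AKR1C2 are shown first as sequence, because these near-identical neighbours gave unequal changes with rhLUM. Their promoter windows were 300 bases that run up to and just past a start site (RefSeq, GRCh38.p14). The windows were at chr10:4963165-4963464 on the plus strand for AKR1C1 and at chr10:5003808-5004107 on the minus strand for AKR1C2. The AKR1C2 window lies within the span given above for the gene and not at its upstream end, so start sites farther upstream were not covered. Capitals mark bases that differ or have no partner in the alignment of the pair.
AKR1C1 promoter: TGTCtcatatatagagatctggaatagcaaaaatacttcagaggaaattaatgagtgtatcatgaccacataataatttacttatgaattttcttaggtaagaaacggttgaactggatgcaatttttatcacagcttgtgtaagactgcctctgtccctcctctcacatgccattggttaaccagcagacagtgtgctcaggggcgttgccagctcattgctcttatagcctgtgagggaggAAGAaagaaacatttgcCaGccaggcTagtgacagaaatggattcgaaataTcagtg
AKR1C2 promoter: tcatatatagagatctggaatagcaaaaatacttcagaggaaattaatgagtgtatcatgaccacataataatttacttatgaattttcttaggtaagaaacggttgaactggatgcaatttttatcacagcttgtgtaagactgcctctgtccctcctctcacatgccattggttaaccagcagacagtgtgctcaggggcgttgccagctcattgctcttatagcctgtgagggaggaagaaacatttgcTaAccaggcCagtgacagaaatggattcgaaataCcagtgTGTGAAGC
Of 292 aligned bases, 288 were identical (98.6%). The 969 coding bases of AKR1C1 and AKR1C2 (GENCODE 29) were 98.0% identical, with 19 differing bases. The 60 coding bases with the most differences, 10 in all, are coding bases 103 to 162, where capitals mark the positions at which AKR1C1 and AKR1C2 differ. The last codon of this stretch, with T160G and A162T (the AKR1C1 base, the position counted from 1 at the first coding base, then the AKR1C2 base), lies in the steroid-binding pocket and is known to encode leucine in AKR1C1 and valine in AKR1C2.
AKR1C1 coding: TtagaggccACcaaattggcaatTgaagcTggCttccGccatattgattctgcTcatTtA
AKR1C2 coding: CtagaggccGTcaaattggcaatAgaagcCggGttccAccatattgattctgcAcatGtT
AKR1C3 coding: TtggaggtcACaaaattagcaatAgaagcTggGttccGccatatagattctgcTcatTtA
AKR1C4 coding: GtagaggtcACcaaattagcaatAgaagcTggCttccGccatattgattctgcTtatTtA
AKR1C3 and AKR1C4 each had the base of AKR1C1 at 8 of these 10 positions. AKR1C1 shared 91.4% of coding bases with AKR1C3 and 88.9% with AKR1C4. Reads were 151 bases long, and 4.40% of the 151-base windows of the AKR1C1 coding sequence also occur in AKR1C2, as do 2.56% of the windows of AKR1C2 in AKR1C3. A single read from those windows cannot be assigned by its own sequence, so the values of AKR1C1, AKR1C2 and AKR1C3 carry that uncertainty. Reads were paired and only coding bases were compared, so these percentages are not the share of reads that could not be assigned. AKR1C4 shares no coding window of that length with the other members of the cluster.

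All values are TPM, estimated reads per transcript length scaled to a common sum per library, so levels can be compared between genes but the depth is unknown and no counting interval can be given. Rows above 0 TPM numbered 22323 to 22916 in rhLUM libraries and 23525 to 24060 in Ctrl libraries. The mitochondrial genome held 14.3 to 14.5% of TPM in rhLUM and 20.5 to 20.7% in Ctrl, and since TPM are shares, a lower mitochondrial share raises all other genes. Of the 10 hepatocyte and liver tumour markers, every gene exceeded 1 TPM in at least 1 library, and their sum was 4974 to 4984 TPM in rhLUM and 3219 to 3239 TPM in Ctrl, of which KRT8 alone averaged 2474 TPM in rhLUM and 1060.3 TPM in Ctrl. Summed markers of other cells were 8.41 to 12.7 TPM in rhLUM and 6.23 to 7.73 TPM in Ctrl for 6 fibroblast genes, with PDGFRB and THY1 under 1 TPM in all libraries. They were 26.9 to 31.7 TPM in rhLUM and 21.6 to 22.9 TPM in Ctrl for 5 endothelial genes, with VWF and TIE1 under 1 TPM, and 61.0 to 63.9 TPM in rhLUM and 37.0 to 38.7 TPM in Ctrl for 7 leukocyte and blood genes, with PTPRC, CD14 and CD3E under 1 TPM. CD68 alone averaged 58.1 TPM of the leukocyte and blood sum in rhLUM and 33.6 TPM in Ctrl. For 3 adipocyte genes they were 0.23 to 0.73 TPM in rhLUM and 0.63 to 1.49 TPM in Ctrl, with ADIPOQ listed at 0 throughout. These markers are human genes on GRCh38, so the sums do not measure fibroblasts, vessels or leukocytes of the xenograft host. Host reads may add to the sums, and which cells express these genes was not tested. The part of other cells in the changes below was not tested, and in bulk tumours fewer cells of a type and less RNA per cell cannot be told apart.

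With rhLUM, AKR1C1, AKR1C4, AKR1B10, AKR1C3, AKR7A2 and AKR7A3 rose, while AKR1A1 and AKR1B1 fell. AKR1C2 was nearly level with a called rise of 0.06 on the log2 scale, and the sign of its small change depended on the scaling. All 9 members passed the filter of a mean of at least 1 TPM and all 9 were called (limma on log2(TPM + 1), Benjamini-Hochberg adjusted p under 0.05 over all genes), 7 higher and 2 lower, in a comparison where 66.4% of the 14878 genes tested were called, 44.2% higher and 22.3% lower. The members' median log2 fold change was 0.48, against 0.16 for all genes tested. Scaling by median of ratios shifted the median of all genes by -0.15. The members then counted 6 higher and 3 lower with a median of 0.31, where 64.9% of all genes were called, 34.3% higher and 30.7% lower, with a median of 0.011. Rescaling without mitochondrial genes gave 6 and 3 as well, where 65.2% of genes were called, 37.8% higher and 27.4% lower. Correcting for transcript length and GC content gave 6 and 3, where 66.5% were called, 36.8% higher and 29.7% lower. The members' median was then 0.30, against 0.044 for all genes so corrected. The correction also recentres all genes and shifted their median by -0.16, so a drop under it is not an effect of length or GC content alone. AKR1C2 was the member that changed side in each case. Tested against a change of 1.2-fold with limma treat, 6 members were higher and 1 lower, where 40.4% of genes were called, 28.2% higher and 12.2% lower. The rhLUM and Ctrl libraries did not overlap for any of the 9 members, as was so for 71.2% of genes tested, 46.8% with all rhLUM libraries above and 24.3% with all below.

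**Figure D1:**
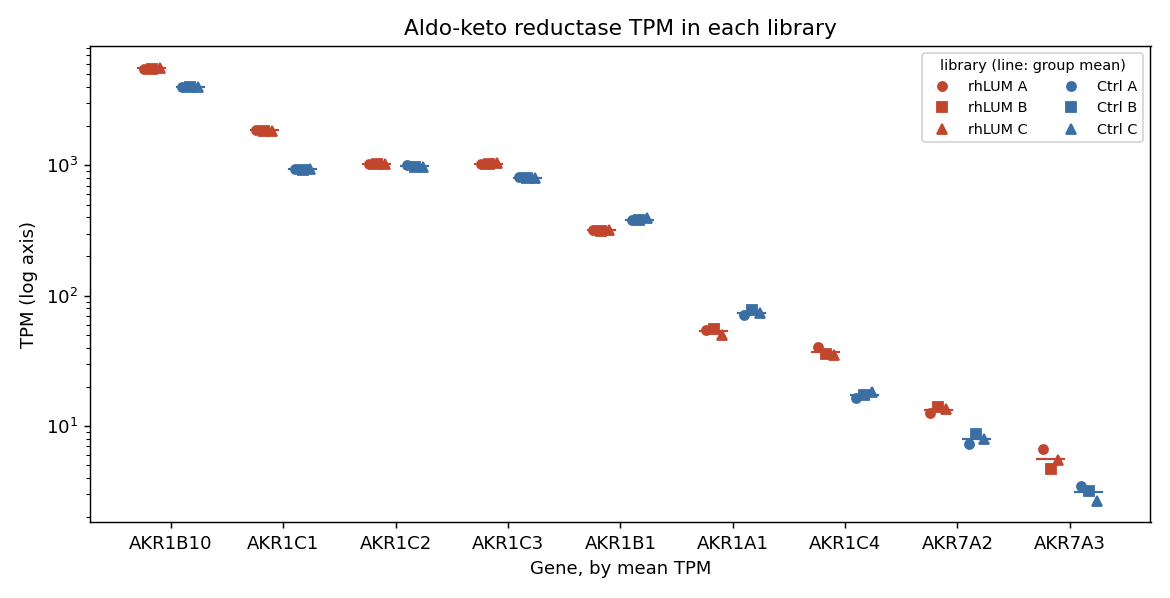
TPM of the 9 aldo-keto reductases (log axis) in each rhLUM and Ctrl library, with a line at each group's mean. AKR1B10 is the highest in every library, at 5494 to 5615 TPM in rhLUM and 3959 to 3978 TPM in Ctrl, and AKR7A3 is the lowest.

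The summed level of the 9 members was 9875 ± 65.3 TPM in rhLUM and 7180 ± 30.2 TPM in Ctrl (SD, n = 3 each), or 0.988% of all TPM in rhLUM and 0.718% in Ctrl. AKR1B10 made up 56.1 ± 0.29% of that sum in rhLUM and 55.3 ± 0.23% in Ctrl. AKR1C1 made up 18.7 ± 0.20% in rhLUM and 13.0 ± 0.16% in Ctrl, and AKR1C2 10.4 ± 0.047% in rhLUM and 13.7 ± 0.20% in Ctrl. Most of the added TPM therefore lay in AKR1B10 and AKR1C1. These sums describe a chosen list and were not tested.

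AKR1C1 inactivates progesterone by reducing it at the side chain. It had 1865, 1842 and 1845 TPM in rhLUM libraries A, B and C, and 940.6, 920.5 and 944.3 TPM in Ctrl libraries A, B and C. The groups were far apart beside a coefficient of variation of 0.65% in rhLUM and 1.37% in Ctrl. The means were 1851 ± 12.1 TPM in rhLUM and 935 ± 12.8 TPM in Ctrl (SD, n = 3 each), a log2 fold change of 0.98 (SE 0.015, limma adjusted p = 2.76e-08). The change stood at the 93.0th percentile of all genes tested and was 0.82 after median-of-ratios scaling.

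AKR1C2, which inactivates dihydrotestosterone and binds bile acids, had 1028, 1024 and 1030.4 TPM in rhLUM libraries A, B and C. In Ctrl libraries A, B and C it had 1004, 972.2 and 972.1 TPM. The lowest rhLUM library lay just above the highest Ctrl library, Ctrl A. The log2 fold change of AKR1C2 came to 0.06 (SE 0.017, limma adjusted p = 0.0121), and limma without the variance trend no longer called it (adjusted p = 0.164). Its sign turned under each of 3 rescalings, to -0.10 with median-of-ratios scaling, -0.17 with upper quartile scaling and -0.044 without the mitochondrial genes, so these data give AKR1C2 no direction that is free of the scaling.

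The ratio of AKR1C1 to AKR1C2 within a library does not depend on the scaling of the library. It was 1.81, 1.80 and 1.79 in rhLUM libraries A, B and C, and 0.94, 0.95 and 0.97 in Ctrl libraries A, B and C. AKR1C1 was thus above AKR1C2 in each rhLUM library and slightly below it in each Ctrl library. The log2 ratio differed by 0.92 between rhLUM and Ctrl (two-sided exact permutation test, p = 0.1, the smallest that 3 against 3 libraries allow, adjusted p = 0.133 over 4 ratios). Together the pair had 2878 ± 13.3 TPM in rhLUM and 1918 ± 25.8 TPM in Ctrl. Since TPM divides by transcript length, the ratio and the sum both depend on how common reads were divided. Whether that division differed between the groups was not tested.

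**Figure D2:**
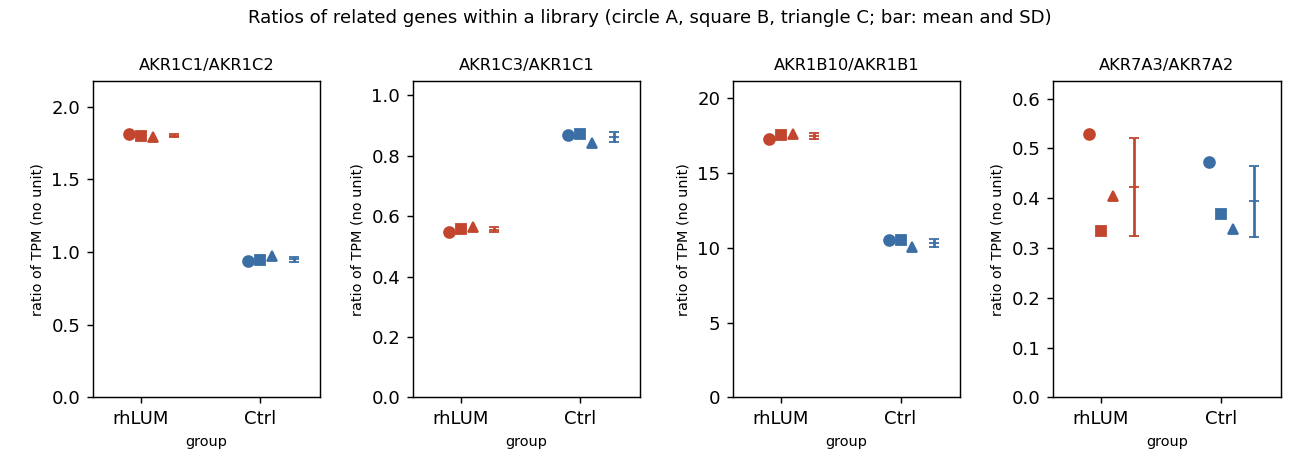
Ratio of TPM of related genes within each library, with the mean and SD of each group. AKR1C1/AKR1C2 and AKR1B10/AKR1B1 are higher and AKR1C3/AKR1C1 is lower in all 3 rhLUM libraries than in any Ctrl library, while the AKR7A3/AKR7A2 ratios of the groups overlap.

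AKR1C3 makes testosterone from androstenedione and reduces prostaglandins. The symbol stood on 2 rows of the tables, which carry no identifier. Their sum was 1019, 1024 and 1038 TPM in rhLUM libraries A, B and C, and 815.8, 802.9 and 795.1 TPM in Ctrl libraries A, B and C. No Ctrl library reached the lowest rhLUM library, and AKR1C3 had a log2 fold change of 0.35 (SE 0.016, limma adjusted p = 2.4e-06) and 0.18 after median-of-ratios scaling, 0.12 after upper quartile scaling and 0.20 after the length and GC correction.

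The rows of AKR1C3 did not contribute equally. The first row had 545 ± 12.1 TPM in rhLUM and 509.9 ± 8.43 TPM in Ctrl (SD, n = 3 each), a log2 fold change of 0.095 (SE 0.023, limma adjusted p = 0.00828 with rows kept apart). The second row had 482 ± 4.85 TPM in rhLUM and 295 ± 10.4 TPM in Ctrl, a log2 fold change of 0.71 (SE 0.028, limma adjusted p = 1.6e-06). The first row changed by less than the median of all genes, and the second held 47.0 ± 0.74% of the symbol in rhLUM and 36.6 ± 1.04% in Ctrl. Without identifiers the transcripts behind either row cannot be named, and the division of reads between the rows was not tested.

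**Figure D3:**
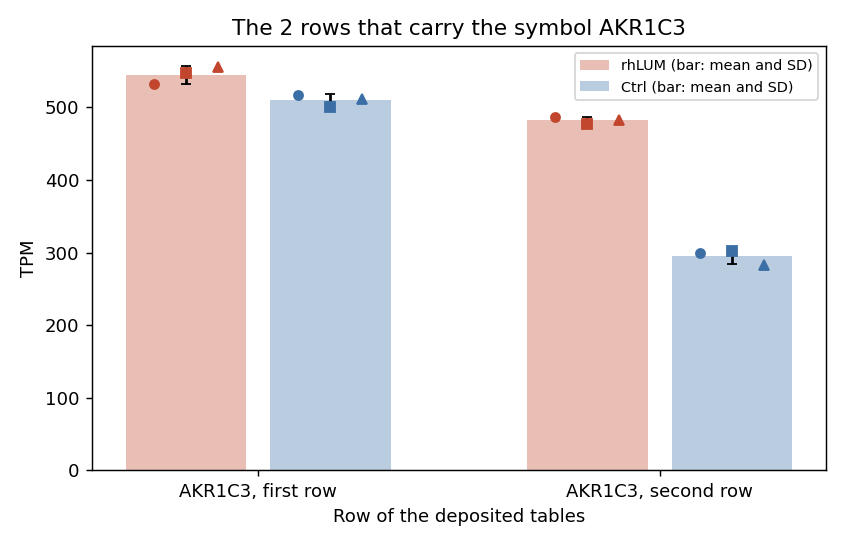
TPM of the 2 rows with the symbol AKR1C3 in rhLUM and Ctrl libraries (points), with each group's mean and SD (bars). The first row is at 500.5 to 556 TPM in all libraries, and the second at 477 to 487 TPM in rhLUM and 283 to 302 TPM in Ctrl.

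AKR1C4, a largely liver-specific enzyme of bile acid synthesis, had 40.6, 36.0 and 35.2 TPM in rhLUM libraries A, B and C. In Ctrl libraries A, B and C it had 16.5, 17.4 and 18.2 TPM. It was the least abundant of the cluster and showed the largest log2 fold change of the 9 members, 1.06 (SE 0.067, limma adjusted p = 1.06e-05), with no overlap between the groups. Its interval of 0.90 to 1.22 (95%) covers the 0.98 of AKR1C1, and the difference between the pair was not tested. The tested protein-coding genes outside the family whose centred log2(TPM + 1) over the 6 libraries lay closest to AKR1C4 were KLF9 (Euclidean distance 0.075), NACC1 (0.095) and LONRF3 (0.096). Their log2 fold changes were 1.06, 1.07 and 1.10, and KLF9 was at only 6.11 TPM in rhLUM and 2.40 TPM in Ctrl. With 2 groups this distance mostly picks genes with a change of like size, and shared control was not tested.

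Within the AKR1C cluster the balance shifted. AKR1C1 made up 46.9 ± 0.23% of the summed TPM of AKR1C1 to AKR1C4 in rhLUM and 34.1 ± 0.40% in Ctrl (SD, n = 3 each). AKR1C2 made up 26.1 ± 0.044% in rhLUM and 35.9 ± 0.27% in Ctrl, and AKR1C3 26.1 ± 0.25% in rhLUM and 29.4 ± 0.23% in Ctrl. AKR1C2 and AKR1C1 were thus close to level in Ctrl, and AKR1C1 alone led in rhLUM. The ratio of AKR1C3 to AKR1C1 averaged 0.55 ± 0.0081 in rhLUM and 0.86 ± 0.016 in Ctrl, a log2 difference of -0.63 (two-sided exact permutation test, p = 0.1, adjusted p = 0.133).

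AKR1B10, a reductase of retinal and of dietary and lipid aldehydes that is normally high in the small intestine, was the most abundant member. It had 5494, 5522 and 5615 TPM in rhLUM libraries A, B and C, and 3977, 3978 and 3959 TPM in Ctrl libraries A, B and C. It ranked 16th or 17th of all symbols in rhLUM libraries and 24th in each Ctrl library. The groups were apart by far more than their spread, with a log2 fold change of 0.48 (SE 0.011, limma adjusted p = 1.36e-07) and 0.31 after median-of-ratios scaling, 0.24 after upper quartile scaling and 0.30 after the length and GC correction.

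AKR1B10 lies on chromosome 7 (134527592 to 134541408, plus strand, GRCh38) between AKR1B1 (134442350 to 134459284, minus strand) and its close relative AKR1B15 (134549136 to 134579875, plus strand). The aligned coding bases of AKR1B10 were 93.5% identical to those of AKR1B15 and 95.2% identical to AKR1B10P1, a processed pseudogene on chromosome 10. AKR1B15 had 105 ± 16.3 TPM in rhLUM and 51.6 ± 5.38 TPM in Ctrl, and AKR1B10P1 138 ± 4.99 TPM in rhLUM and 42.3 ± 2.23 TPM in Ctrl (SD, n = 3 each). How far reads of AKR1B10 were placed on these copies was not tested, so both values are uncertain. The sum of AKR1B10, AKR1B15 and AKR1B10P1 was 5786 ± 83.5 TPM in rhLUM and 4065 ± 11.1 TPM in Ctrl, a ratio of 1.42, close to the 1.40 of AKR1B10 alone.

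AKR1B1, the aldose reductase that turns glucose into sorbitol in the polyol pathway, moved the other way. It had 317.9, 314.9 and 318.5 TPM in rhLUM libraries A, B and C, and 379, 378 and 394.5 TPM in Ctrl libraries A, B and C. Every rhLUM library was lower than every Ctrl library, at a log2 fold change of -0.27 (SE 0.023, limma adjusted p = 3.84e-05). The fall was larger after median-of-ratios scaling, at -0.44, but did not pass a test against a change of 1.2-fold on the deposited scale (limma treat, adjusted p = 0.528). The ratio of AKR1B10 to AKR1B1 averaged 17.5 ± 0.18 in rhLUM and 10.4 ± 0.27 in Ctrl (SD, n = 3 each), a log2 difference of 0.76 (two-sided exact permutation test, p = 0.1, adjusted p = 0.133).

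AKR1A1, the general aldehyde reductase, which also reduces glucuronate, lies on chromosome 1 (45550543 to 45570049, plus strand). It had 55.1, 55.4 and 49.95 TPM in rhLUM libraries A, B and C, and 71.3, 77.5 and 73.2 TPM in Ctrl libraries A, B and C. The rhLUM libraries were all lower, with a log2 fold change of -0.46 (SE 0.053, limma adjusted p = 2.05e-04) and -0.63 after median-of-ratios scaling. AKR1A1 and AKR1B1 were thus the members that fell.

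**Figure D4:**
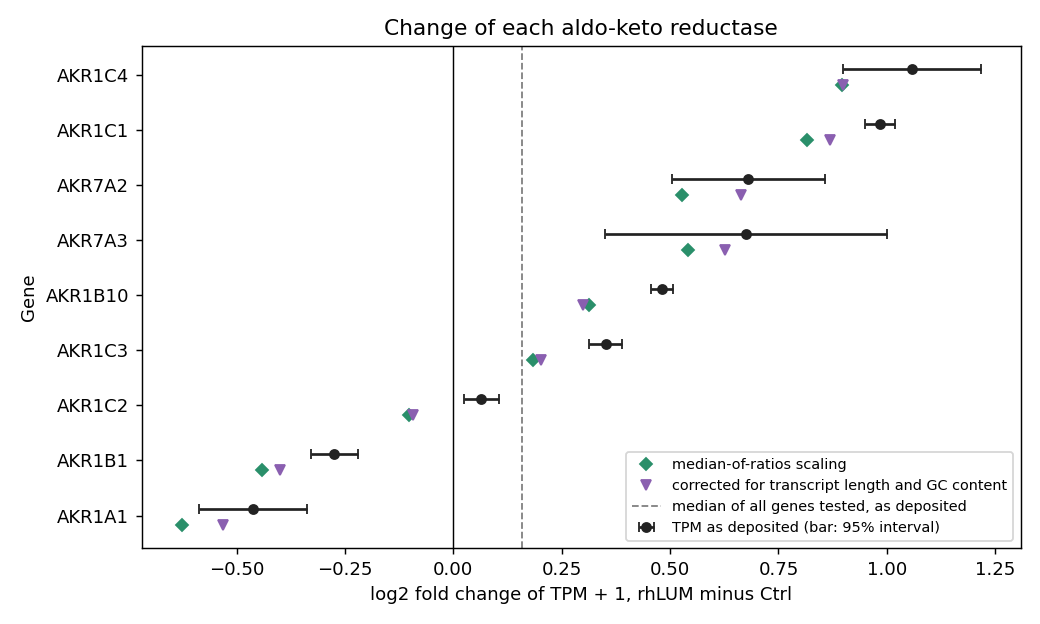
Log2 fold change of TPM + 1, rhLUM minus Ctrl, of each aldo-keto reductase, with its 95% interval as deposited and its value after median-of-ratios scaling or once corrected for length and GC. AKR1C4 (1.06) and AKR1C1 (0.98) are highest and AKR1A1 (-0.46) lowest, and AKR1C2 is the member whose point lies on either side of 0.

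AKR7A2 and AKR7A3 reduce dialdehydes of the liver carcinogen aflatoxin, and AKR7A2 also reduces succinic semialdehyde. They lie side by side on chromosome 1 (19303965 to 19312146 and 19282558 to 19289250, both minus strand), and 92.1% of their aligned coding bases were identical. The longest coding run shared by AKR7A2 and AKR7A3 was 103 bases, shorter than a read. AKR7A2 had 12.6, 14.0 and 13.5 TPM in rhLUM libraries A, B and C, and 7.33, 8.64 and 7.95 TPM in Ctrl libraries A, B and C. AKR7A3 had 6.69, 4.66 and 5.46 TPM in rhLUM libraries A, B and C, and 3.47, 3.19 and 2.69 TPM in Ctrl libraries A, B and C. Both were higher in every rhLUM library, though AKR7A3 was the least abundant member and varied by 18.2% (coefficient of variation) among rhLUM libraries.

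AKR7A2 rose by 0.68 on the log2 scale (SE 0.074, limma adjusted p = 1.58e-04) and AKR7A3 by 0.67 (SE 0.14, limma adjusted p = 0.00376). The ratio of AKR7A3 to AKR7A2 averaged 0.42 ± 0.099 in rhLUM and 0.39 ± 0.071 in Ctrl (SD, n = 3 each), and the groups overlapped. The log2 ratio differed by 0.091 (two-sided exact permutation test, p = 0.7, adjusted p = 0.7), and its sign turned when rhLUM library A or Ctrl library C was left out (-0.0850 and -0.011).

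A core of the antioxidant response element, to which NRF2 binds, was searched for in the promoter windows as TGACNNNGC on both strands. The table held 11 windows for 8 of the 9 members, and AKR1B10 was not analysed here. The motif was found in 2 of the 11 windows, both of AKR7A2, and in 13.3% of 35116 windows of the same length over all genes. The pair of AKR7A2 windows start 2 bases apart, and the window at chr1:19312097-19312396 (minus strand, RefSeq, GRCh38.p14) is shown with its 3 matches in capitals, at -167, -156 and -95 from the start site.
AKR7A2 promoter: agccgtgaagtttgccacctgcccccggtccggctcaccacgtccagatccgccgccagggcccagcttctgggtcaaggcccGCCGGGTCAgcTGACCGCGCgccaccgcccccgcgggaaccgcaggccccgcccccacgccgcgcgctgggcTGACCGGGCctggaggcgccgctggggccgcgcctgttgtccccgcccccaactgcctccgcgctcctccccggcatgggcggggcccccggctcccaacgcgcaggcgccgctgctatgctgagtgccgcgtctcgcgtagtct
The windows of AKR1A1, AKR1B1, AKR1C1, AKR1C2, AKR1C3, AKR1C4 and AKR7A3 held no such letters. The windows of AKR1A1, AKR1C2, AKR1C3, AKR1C4 and AKR7A3 lie inside the GENCODE 29 spans of these genes and do not reach their upstream ends, those of AKR1C2 and AKR1C3 by far. Start sites outside the windows were not searched. A match is a description of sequence and not a site, and more distant sequence was not examined.

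Other genes of the superfamily were measured beside the members. Of 7 listed, 4 passed the filter, in a comparison where 44.2% of the genes tested were called higher and 22.3% lower. AKR1B15 (log2 fold change 1.01), AKR1E2 (0.94) and KCNAB2 (0.50), a potassium channel beta subunit, were called higher and AKR7L (-0.37), a neighbour and relative of AKR7A3, was called lower. The call of KCNAB2 was lost after median-of-ratios scaling (adjusted p = 0.104) and on leaving out any library but Ctrl B (adjusted p up to 0.106). AKR1D1, the steroid reductase of bile acid synthesis, was at 0.070 TPM in rhLUM and 0.033 TPM in Ctrl and was not tested.

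**Figure D5:**
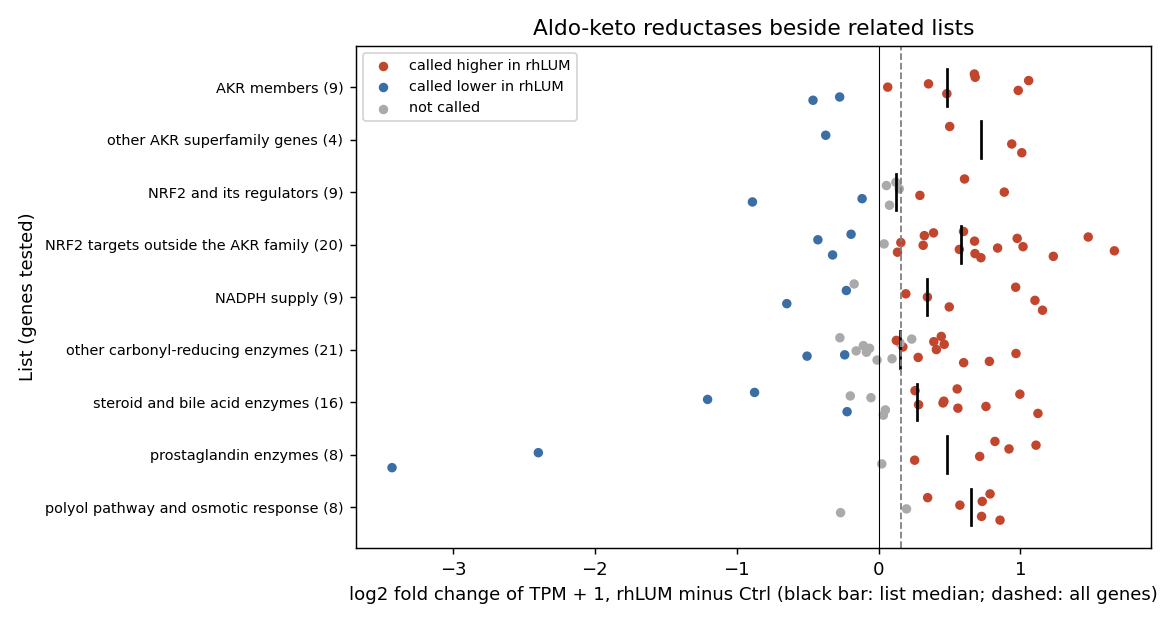
Log2 fold change of TPM + 1, rhLUM minus Ctrl, of each tested gene of the aldo-keto reductases and of 8 related lists, coloured by its call. The black bars are list medians, 0.48 for the 9 members and 0.58 for the NRF2 targets, and the dashed line is the median of all genes, 0.16.

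The related lists are read against all genes tested, of which 44.2% rose and 22.3% fell at a median log2 fold change of 0.16. With median-of-ratios scaling 34.3% of all genes rose and 30.7% fell, at a median of 0.011. After the length and GC correction 36.8% of all genes rose and 29.7% fell, at a median of 0.044. The lists were chosen with results of these data known. Of 20 other NRF2 targets, 16 rose and 3 fell, or 14 and 4 with median-of-ratios scaling, around a median log2 fold change of 0.58 (0.31 after the length and GC correction). TXNRD1, a thioredoxin reductase, stood at 1.23, UGDH, which makes glucuronate donors, at 1.48, GSR, glutathione reductase, at 1.02 and NQO1, a quinone reductase, at 0.72. TXN (-0.32), PIR (-0.43) and the transporter gene ABCC3 (-0.19) fell. Among 9 genes of NRF2 and its regulators, 3 rose and 2 fell, with a median of 0.12 that turned to -0.037 with median-of-ratios scaling. NFE2L2, the gene of NRF2 itself, was at 86.4 TPM in rhLUM and 81.9 TPM in Ctrl, a log2 fold change of 0.077 that did not pass (limma adjusted p = 0.162). KEAP1, its inhibitor, was at 8.58 ± 3.05 TPM in rhLUM and 16.2 ± 0.90 TPM in Ctrl, a log2 fold change of -0.89 (limma adjusted p = 0.00582), and BACH1, a repressor at the same element, rose by 0.89. NFE2L1 (0.61) and SQSTM1 (0.29) rose, the call of SQSTM1 being lost with upper quartile scaling (adjusted p = 0.103). CUL3 (-0.12, and -0.39 after the length and GC correction) was called lower, a call lost with the replicate block (adjusted p = 0.0701) and on leaving out any of 4 libraries, rhLUM B, rhLUM C, Ctrl B and Ctrl C (adjusted p up to 0.0859).

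The reductases draw on NADPH, and of 9 genes of its supply 6 rose and 2 fell, or 5 and 3 with median-of-ratios scaling. The shares over all genes were 44.2% higher and 22.3% lower, or 34.3% and 30.7% with that scaling. The list's median log2 fold change was 0.34, and 0.15 after the length and GC correction, against 0.16 and 0.044 for all genes. The malic enzyme ME1 (1.10), PGD (0.50) and IDH1 (0.34, and 0.15 after that correction) rose, while H6PD (-0.65) and MTHFD1 (-0.23) fell.

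A further list held 25 other carbonyl-reducing and related enzymes, not all of which act on the carbonyl group itself. Of these, 21 were tested, of which 10 rose and 2 fell, or 8 and 6 with median-of-ratios scaling. Of all genes 44.2% rose and 22.3% fell, or 34.3% and 30.7% with that scaling. The list median was 0.15, and it turned to -0.0042 with median-of-ratios scaling and to -0.020 after the length and GC correction. For all genes the median was 0.16, 0.011 and 0.044 in turn. PTGR1 (0.46), the carbonyl reductase CBR1 (0.60), the retinol dehydrogenase DHRS9 (0.97) and the alcohol dehydrogenase ADH1C (0.39) rose, and DHRS3 (-0.50) and DHRS4 (-0.24) fell. With upper quartile scaling PTGR1 stood at 0.23, CBR1 at 0.36 and ADH1C at 0.15. DHRS4 lost its call against a 1.2-fold change (limma treat, adjusted p = 0.925). The median of this list lay close to that of all genes, unlike that of the aldo-keto reductases, but the difference between the lists was not tested.

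Of 23 steroid and bile acid enzymes, 16 were tested, of which 9 rose and 3 fell (44.2% and 22.3% of all genes), around a median of 0.27. With median-of-ratios scaling 8 rose and 5 fell, where 34.3% of all genes rose and 30.7% fell. After the length and GC correction 8 rose and 4 fell around a median of 0.085, against 0.044 for all genes so corrected. SRD5A1, which makes the dihydrotestosterone that AKR1C2 inactivates, rose by 1.00 (0.51 after the length and GC correction), HSD17B2 by 1.12 and HSD17B12 by 0.46. SRD5A3 (-0.87) and HSD17B14 (-1.21) fell. HSD17B4 (-0.22, and -0.49 after the length and GC correction) was called lower, a call lost without the filter on low values (adjusted p = 0.0539) and on leaving out any of 4 libraries, rhLUM B, rhLUM C, Ctrl A and Ctrl C (adjusted p up to 0.0687). Of 10 prostaglandin enzymes, 8 were tested, of which 5 rose and 2 fell, or 4 and 2 with median-of-ratios scaling, around a median of 0.48. PTGS2, the inducible cyclooxygenase upstream of the prostaglandins that AKR1C3 reduces, had 7.29 ± 0.39 TPM in rhLUM and 88.2 ± 1.63 TPM in Ctrl (SD, n = 3 each), a log2 fold change of -3.43. PTGDS (-2.40) fell too, while HPGD (0.92), which degrades prostaglandins, and PTGES3 (0.71) rose.

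AKR1B1 is the entry of the polyol pathway and is known to be induced by osmotic stress. Of 9 other genes of that pathway and response, 8 were tested, around a median of 0.65. Of these, 6 rose and none fell, where 44.2% of all genes rose and 22.3% fell. The counts were the same when scaled by median of ratios, where 34.3% of all genes rose and 30.7% fell. After the length and GC correction 5 rose and none fell, around a median of 0.21, against 0.044 for all genes so corrected. SORD, which oxidises the sorbitol that AKR1B1 makes, had 47.4 to 50.1 TPM in rhLUM and 26.0 to 27.8 TPM in Ctrl (n = 3 each), a log2 fold change of 0.86, and 0.55 after that correction. The osmolyte transporters SLC5A3 (0.73) and SLC6A6 (0.35) and the osmotic regulator NFAT5 (0.57) rose as well, in the opposite direction to AKR1B1. After the correction SLC5A3 stood at 0.19, and the call of NFAT5 was lost (0.11, adjusted p = 0.377).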

How the data were processed

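The authors deposited 1 table per library with 60725 rows of TPM, per the file headers, named by gene symbol only. Poly-A RNA was sequenced as paired reads of 151 bases, per the labels' protocols. STAR 2.7.8, RSEM 1.2.31 and GRCh38 are named in the submitters' processing notes. For the annotation release, the use of strand and the removal of host reads, the entry is "not given in the sources used here". Host reads and antisense transcripts may therefore add to a value.

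Rows that share a symbol (313 symbols) were summed. Genes averaging at least 1 TPM were tested with limma 3.58.1 (R 4.3.3) on log2(TPM + 1) with a variance trend, two-sided, with Benjamini-Hochberg adjustment over 14878 genes at a threshold of 0.05. The pseudocount of 1 understates changes of low genes. Ratios of 2 members were compared by exact permutation, and sequences were compared with Biopython 1.88. The fit was also run on simulated data in which few genes changed, so that run cannot judge calls made where most genes change.

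Members and lists were chosen with earlier results of these data known. Beside the members, the genes named were up to 4 called genes of lowest p in each list, those called against their list's majority, and the 3 nearest in pattern to the member with the largest change. AKR1B10P1, NFE2L2 and AKR1D1 were named after their values were seen. A gene that the rule would name is not reported here. Alternatives were other scalings, pseudocounts, filters and limma settings, a replicate block, and each library left out. Length and GC content (GENCODE 29, by symbol) were found for 12931 of the genes tested (86.9%).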

Additional observations from a re-analysis of the deposited data

How the results depend on the processing

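AKR1C1, AKR1C3, AKR1C4, AKR1B10, AKR1A1, AKR7A2 and AKR7A3 kept their direction and call under every alternative that could be fitted to them (AKR7A3 not at a minimum of 5 TPM, AKR1C3 not with shared symbols left out). Leaving out each of the 6 libraries in turn changed no call of the 9 members (54 values). AKR1C2 turned to -0.10 with median-of-ratios scaling, -0.17 with upper quartile scaling, -0.044 without mitochondrial genes and -0.094 after the length and GC correction, which was chosen after seeing the data, as was testing the AKR1C3 rows apart. These settings moved the median of all genes by -0.15, -0.21, -0.095 and -0.16. The share of higher among called genes was 66.5% as deposited and 52.8%, 46.8%, 58.0% and 55.3% under them. Tested against a 1.2-fold change, 1 member was lower and the calls of AKR1B1 and AKR1C2 were lost. Over all genes 4195 were then higher and 1821 lower, against 6571 and 3313 with the test against no change. Upper quartile scaling left 5147 lower. The log2 difference in the AKR7A3 to AKR7A2 ratio was -0.00599 with TPM + 1, and -0.0850 to 0.25 on leaving out each library. The cause was not tested. Deviations from the group means correlated at 0.021, -0.012 and 0.088 between libraries of the same letter (A, B, C), and rhLUM A correlated more with Ctrl B (0.056), so the letters were not taken as a pairing. With the replicate block, 6420 genes were higher and 3217 lower, 7 members were higher and 2 lower, and CUL3 was the named gene whose call changed. Of 42 other named genes, 20 of 460 values under other settings and 13 of 252 with a library left out lost their call, and none turned direction. AKR7L, KCNAB2, SQSTM1, CUL3, ABCC3, PIR, MTHFD1, DHRS4, HSD17B4 and SLC6A6 lost it when tested against a 1.2-fold change. Under upper quartile scaling PGD stood at 0.26, HSD17B12 at 0.23, SLC6A6 at 0.12 and IDH1 at 0.11, while the fall of TXN grew to -0.56. The depth is unknown from TPM. The coefficient of variation was 18.2% in rhLUM and 12.7% in Ctrl for AKR7A3, and 1.14% in rhLUM and 0.26% in Ctrl for AKR1B10.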
